A study of Mus musculus with 8 samples.

Results

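In 8 RNA-seq libraries of splenic CD8+ T cells, 10 genes of the JAK-STAT pathway were followed: 5 STAT factors (*Stat3*, *Stat4*, *Stat5a*, *Stat5b* and *Stat6*), the kinase gene *Jak3*, and 4 inhibitors of the SOCS family (*Socs1*, *Socs2*, *Socs3* and *Cish*). They were taken by symbol from the 48321 gene symbols of the count tables, and all 10 were found. CD8+ T cells are the T lymphocytes that kill infected or transformed cells. The cells came from C57BL/6 mice and were compared before culture (day 0) and at day 5 of culture. The series describes floxed *Satb1* alleles combined with *E8I-cre*, in which an enhancer of the CD8 locus drives Cre recombinase once CD8 T cells have matured. SATB1 shapes the chromatin of T cells and their precursors.

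The 4 groups were WT at day 0, KO at day 0, WT at day 5 and KO at day 5, with 2 libraries in each. The labels gave genotype only as WT or KO, so whether WT mice carried the floxed alleles without the driver was not given in the sources used here, and no label tied a library to a mouse. P-values therefore measured the spread between these libraries, which may be technical. For cultured T cells the methods of the study describe antibodies to CD3e and CD28 followed by IL-2, with a longer antibody stimulation for an exhaustion condition. Which of these the day 5 cells received was not stated. Time in culture and any difference in handling between days cannot be told apart.

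Cytokines such as IL-2, IL-7, IL-12 and IL-4 bind receptor chains that carry Janus kinases (JAKs). The kinases phosphorylate the receptor and then STAT proteins, which pair, enter the nucleus and bind DNA. STAT5A and STAT5B act downstream of IL-2, IL-7 and IL-15, STAT4 downstream of IL-12, STAT6 downstream of IL-4 and STAT3 downstream of IL-6 and IL-21. SOCS proteins and CIS, the product of *Cish*, are made in response to these signals and dampen them, so their transcripts are commonly read as a trace of recent cytokine signalling.

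*Stat5b*, *Stat5a* and *Stat3* were neighbours on chromosome 11 and lay within 159 kilobases (GRCm38). *Stat5b* occupied chr11:100780731-100850724 on the minus strand and *Stat5a* chr11:100859351-100885169 on the plus strand. *Stat3*, at chr11:100885098-100939540 on the minus strand, shared 72 bases with the end of *Stat5a*. Of the remaining members, *Stat4* lay on chromosome 1, *Stat6* and *Socs2* on chromosome 10, *Jak3* on chromosome 8, *Socs1* on chromosome 16, *Socs3* on chromosome 11 and *Cish* on chromosome 9.

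STAT dimers bind palindromes, of which TTCNNNGAA is a common form. The 250 bases upstream of the RefSeq start sites (GRCm38.p6) were searched for it, and read on either strand the motif is the same. Forms with another spacing were not searched. The promoter table held 9 of the 10 members and not *Socs2*. One member of the 9, *Socs3*, held a match. Of all 27025 genes with a window 8.13% held one, and of all 32851 windows of that length 7.02% did. The *Socs3* and *Socs1* upstream sequences are shown because they are inhibitors with and without the match. The first, with TTCNNNGAA in capitals (at chr11:117969512-117969520), runs from 250 to 86 bases upstream and stops where an annotated *Socs3* exon begins. In the GENCODE annotation *Socs3* spans chr11:117966079-117970047, so this stretch lies within the annotated gene, outside its exons. Both sequences are on the minus strand and are written 5′ to 3′.
Socs3, chr11:117969452-117969616: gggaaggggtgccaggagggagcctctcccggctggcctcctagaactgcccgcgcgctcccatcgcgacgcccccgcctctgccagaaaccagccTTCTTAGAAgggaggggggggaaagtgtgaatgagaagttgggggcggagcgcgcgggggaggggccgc
Socs1, chr16:10785537-10785786: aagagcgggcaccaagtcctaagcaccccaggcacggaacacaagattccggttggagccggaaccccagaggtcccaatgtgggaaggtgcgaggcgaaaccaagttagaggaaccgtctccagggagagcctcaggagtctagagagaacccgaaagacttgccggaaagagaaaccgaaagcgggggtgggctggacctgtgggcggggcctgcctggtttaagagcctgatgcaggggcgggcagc
The window of *Cish* lay wholly inside an exon of the GENCODE annotation and is not shown. A match is a string of letters and not a shown binding site, and a window without one says nothing of STAT binding elsewhere at the gene.

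The libraries held 4170126 to 11117971 gene counts each, so that 1 CPM, the usual scaling of counts to library size, corresponded to 4.16 to 11.7 counts. CPM values were scaled by trimmed mean of M-values (TMM) factors. All 7 CD8 T-cell markers were present, with a summed level of 12445 to 13405 CPM per library at day 0, and at day 5 of 8176 to 8432 CPM in WT and 9477 to 9485 CPM in KO. The sum of the 3 NK-cell markers went from 10.7 to 17.3 CPM at day 0 to 37.4 to 53.9 CPM at day 5, mostly as *Eomes*. *Ncr1* and *Klrb1c* did not exceed 0.96 CPM in any library, so the rise of the sum was that of *Eomes*. The part of the CD8 T-cell and NK-cell markers in the changes with culture was not tested. The B-cell markers *Ms4a1*, *Cd79a* and *Pax5* did not exceed 2.25 CPM in any library, while *Cd79b* was counted at 118 to 163 CPM at day 0 and 66.4 to 83.0 CPM at day 5, and *Ighm* at 1892 to 2269 CPM and 1387 to 1548 CPM. The sum of the 6 myeloid markers went from 90.9 to 132 CPM at day 0 to 172 to 227 CPM at day 5, mostly as *Cst3*. Others of this list went the other way: *Csf1r* went from 6.77 to 11.7 CPM at day 0 to 3.51 to 4.72 CPM at day 5. *Itgam* went from 2.05 to 5.18 CPM to 0.48 to 1.47 CPM. *Lyz2*, *Fcer1g* and *Cd14* did not exceed 3.38 CPM in any library. The part of these markers in the changes with culture was not tested either. *Satb1* itself went against the label at day 0: it stood at 97.5 and 91.2 CPM in the WT libraries, and the libraries labelled KO held 144 and 124 CPM, a log2 difference of 0.51 ± 0.15 that was not called (edgeR adjusted p = 0.125). In culture it stood at 96.1 and 115 CPM in WT and at 56.3 and 62.1 CPM in KO (day 5), a log2 fold change of -0.84 ± 0.15 (SE; edgeR quasi-likelihood test, Benjamini-Hochberg adjusted p = 0.0162). Whether the counted part of *Satb1* lies in the deleted part was not given in the sources used here, so KO below means the libraries labelled KO. Were the day 0 labels exchanged, the day 0 differences between genotypes would turn sign, and the changes with culture per genotype and the interaction would take other values. This was not tested. *Foxp3*, a marker of regulatory T cells, also moved with the label: it was counted at 9.09 and 10.4 CPM in WT and 43.6 and 65.6 CPM in KO at day 0, and at 23.7 and 9.60 CPM in WT and 51.5 and 61.7 CPM in KO at day 5. *Ikzf2*, another such marker, was counted at 15.5 and 15.6 CPM in WT and 77.0 and 66.0 CPM in KO at day 0, but overlapped at day 5 (13.7 and 28.1 CPM in WT, 17.0 and 25.5 CPM in KO), as did *Il2ra*. The part of these markers in the results below was not tested. In bulk RNA, fewer cells of a type and less RNA per cell cannot be told apart.

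Among the members, the called changes with culture were in inhibitors and in STAT genes. *Cish* and *Socs2* rose at day 5 in both genotypes, *Stat5a*, *Stat5b* and *Stat6* fell in both, and *Stat4* rose in WT. Across the members, 6 of the 9 tested passed the threshold in WT (3 higher and 3 lower) and 5 of 9 in KO (2 higher and 3 lower). Of all 12597 genes tested, 48.3% passed it in WT (24.7% higher and 23.6% lower) and 50.2% in KO (26.2% higher and 24.0% lower), so calls were common over the whole transcriptome too. The libraries of the 2 days did not overlap for 9 of the 10 members in WT and 8 of 10 in KO, beside 73.7% and 77.9% of all genes tested. "Called" here means an adjusted p under 0.05 (edgeR quasi-likelihood test, Benjamini-Hochberg over all genes tested). Both day comparisons are given side by side below, and no member's change with culture was shown to differ between genotypes.

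*Cish* encodes CIS, an inhibitor that binds activated cytokine receptors and is a well-known STAT5 target. It stood at 14.6 and 14.6 CPM in WT and 10.2 and 17.7 CPM in KO at day 0, against 194 and 150.1 CPM in WT and 259 and 238 CPM in KO at day 5. Every day 5 library was above every day 0 library, with no overlap. The rise was 11.8-fold in WT (log2 fold change 3.55 ± 0.23 SE, adjusted p = 9.55e-08) and 18.6-fold in KO (4.21 ± 0.23, adjusted p = 1.54e-08). *Cish* shared 11.5% of its exon length with exons on the other strand (*Gm17041*), and the strand setting of the counting was not given in the sources used here.

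*Socs2* encodes an inhibitor best known for restraining growth hormone signalling and also induced by cytokines in T cells. Its raw counts were 2 and 1 in WT and 0 and 7 in KO at day 0, and 153 and 172 in WT and 157 and 146 in KO at day 5. It was close to undetected before culture and plainly present in all 4 cultured libraries. At day 5 it reached 26.9 and 41.3 CPM in WT and 28.8 and 27.5 CPM in KO. The ratio of day 5 to day 0, from counts pooled over the libraries of a group, was 110.5 in WT (95% counting interval 37.5 to 538) and 69.1 in KO (33.1 to 173). Both rises were called (adjusted p = 6.84e-06 in WT and 5.46e-06 in KO). With counts of 0 to 7 at day 0, the size of the rise is poorly known, and these intervals cover counting error alone. The fitted rise in KO was 5.97 on the log2 scale, 4.43 without KO replicate 1 of day 0, 10.42 without KO replicate 2 of day 0, which leaves the library at 0 and gives no bound, and 5.11 after thinning the libraries to equal depth. All of these were called. The KO library without a count allowed up to 0.256 CPM (3 counts), whereas the second KO library stood at 1.28 CPM.

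*Socs1*, an inhibitor that acts directly on the kinases, was sparse throughout and fell below the filter on low counts. Its raw counts were 3 and 1 in WT and 5 and 1 in KO at day 0, and 11 and 13 in WT and 10 and 10 in KO at day 5. The groups of the 2 days did not overlap in CPM in either genotype. The pooled ratio of day 5 to day 0 was 6.12 in WT (95% counting interval 2.10 to 24.3) and 5.32 in KO (2.06 to 16.2). In a fit with no filter on low counts, *Socs1* rose by 2.58 ± 0.83 on the log2 scale in WT (edgeR quasi-likelihood, adjusted p = 0.0139) and by 2.34 ± 0.79 in KO (adjusted p = 0.0196).

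*Socs3*, which restrains IL-6 family signalling through STAT3 and carries the motif match shown above, was lower rather than higher at day 5. It stood at 9.62 and 9.46 CPM in WT and 10.3 and 14.4 CPM in KO at day 0, and at 5.27 and 7.20 CPM in WT and 8.80 and 4.53 CPM in KO at day 5. All day 5 values were below all day 0 values of their genotype. The differences were not called: the log2 fold change was -0.63 in WT (95% interval -1.42 to 0.16, adjusted p = 0.175) and -0.87 in KO (-1.61 to -0.12, adjusted p = 0.0513). The KO difference was called under 7 of the 19 alternatives, among them scaling by library totals (-1.05, adjusted p = 0.0248) and omission of KO replicate 1 of day 5 (-1.43, adjusted p = 0.0210). It shrank to -0.47 (adjusted p = 0.368) without KO replicate 2 of day 5 and to -0.62 (adjusted p = 0.221) without KO replicate 2 of day 0.

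**Figure D1:**
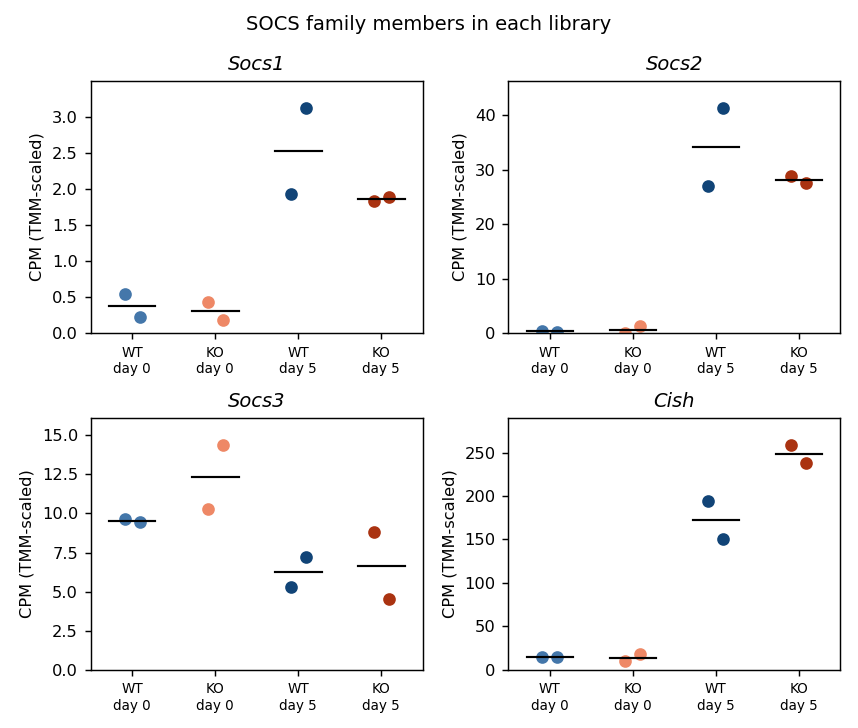
Level of the 4 SOCS family members in CPM (TMM-scaled, linear axis from 0) by group, with 1 point per library and a bar at the mean of the 2 libraries. *Cish*, *Socs2* and *Socs1* sit higher in all 4 libraries of day 5 than in any of day 0, and *Socs3* sits lower at day 5 within each genotype.

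Among the STAT genes, *Stat5a* showed the largest fall. Its product and that of *Stat5b* carry the signals of IL-2 and IL-7. *Stat5a* stood at 44.0 and 48.2 CPM in WT and 49.1 and 38.0 CPM in KO at day 0, and at 17.4 and 19.7 CPM in WT and 23.3 and 23.2 CPM in KO at day 5. No day 5 library reached a day 0 library. The fall was 2.49-fold in WT (log2 fold change -1.32 ± 0.19 SE, adjusted p = 1.26e-04) and 1.89-fold in KO (-0.92 ± 0.19, adjusted p = 0.00132).

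*Stat5b* moved the same way. It stood at 83.1 and 87.9 CPM in WT and 93.5 and 85.0 CPM in KO at day 0, and at 45.3 and 41.8 CPM in WT and 52.1 and 59.6 CPM in KO at day 5. Again the days did not overlap. The fall was 1.96-fold in WT (-0.97 ± 0.15 on the log2 scale, adjusted p = 2.03e-04) and 1.60-fold in KO (-0.68 ± 0.15, adjusted p = 0.00205). The paralogs are alike in sequence: 8.52% of the 50-base words of the *Stat5a* transcripts and 11% of those of *Stat5b* also occurred in another gene, mostly in each other. Reads from those stretches were set aside in counting, so both genes were counted from the rest.

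*Stat6*, which carries IL-4 signals, was lower in culture. It stood at 127 and 178 CPM in WT and 220.01 and 201 CPM in KO at day 0, and at 83.3 and 71.3 CPM in WT and 103 and 152 CPM in KO at day 5. Within each genotype the days did not overlap, but KO replicate 2 of day 5 lay above WT replicate 1 of day 0. The fall was 1.96-fold in WT (-0.97 ± 0.20 on the log2 scale, adjusted p = 0.00166) and 1.65-fold in KO (-0.72 ± 0.20, adjusted p = 0.00848). Without KO replicate 1 of day 5 the KO fall was no longer called (-0.47, adjusted p = 0.112).

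*Stat4*, the carrier of IL-12 signals in T cells, was the one STAT gene of the members with a called rise. It stood at 187 and 205 CPM in WT and 224 and 211 CPM in KO at day 0, and at 278 and 279 CPM in WT and 271 and 246 CPM in KO at day 5. All 4 cultured libraries were above all 4 uncultured ones. The rise was 1.42-fold in WT (0.50 ± 0.12 on the log2 scale, adjusted p = 0.00397). In KO the difference was 0.25 (95% interval -0.01 to 0.51, adjusted p = 0.0995), with 0.07 under library totals, 0.01 under an offset for GC and length, and a call without WT replicate 2 of day 5 (0.27, adjusted p = 0.0497). An offset for GC content and exon length, added after the data were seen, took the WT value to 0.20 and ended its call (adjusted p = 0.186). *Stat4* also shared 26.7% of its exon length with *Gm28177* on the same strand, and reads there could be set aside as ambiguous.

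*Stat3* stayed in a narrow band. It stood at 100.2 and 100.5 CPM in WT and 123 and 107 CPM in KO at day 0, and at 111 and 97.5 CPM in WT and 112 and 99.4 CPM in KO at day 5. The libraries of the 2 days overlapped in both genotypes. The log2 difference between days was 0.05 in WT (95% interval -0.25 to 0.36) and -0.13 in KO (-0.43 to 0.17). The sign of the WT value turned under scaling by library totals (-0.08).

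*Jak3* encodes the kinase that pairs with the common gamma chain of the IL-2, IL-4, IL-7, IL-9, IL-15 and IL-21 receptors. It was close to the limit of counting, with raw counts of 6 and 7 in WT and 8 and 7 in KO at day 0, and 10 and 15 in WT and 4 and 14 in KO at day 5. In CPM these were 1.07 and 1.58, 0.684 and 1.28, 1.76 and 3.60, and 0.733 and 2.64. The days overlapped in KO and not in WT. No difference was called: the log2 fold change with culture was 0.99 in WT (95% interval -0.59 to 2.57) and 0.86 in KO (-0.75 to 2.47). *Jak3* had the highest GC content of the members, 61.0%, and shared 7.55% of its exon length with *Insl3* on the same strand. Of protein-coding genes with a GC content of 60% or more, 27.9% reached 1 CPM, against 41.4% to 55.4% in the other GC classes. The part of either in the low *Jak3* counts was not tested.

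**Figure D2:**
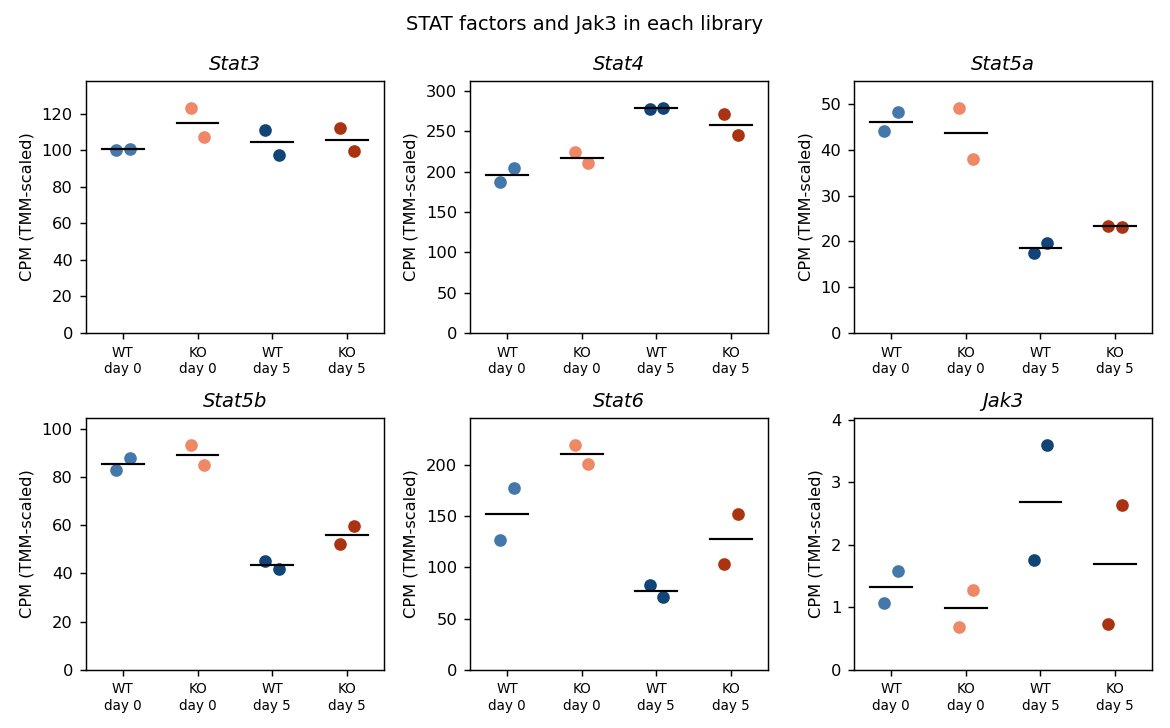
Level of the 5 STAT members and *Jak3* in CPM (TMM-scaled, linear axes from 0) by group, with 1 point per library and a bar at the mean of the 2 libraries. *Stat5a* and *Stat5b* sit lower in every library of day 5 than in any of day 0, *Stat4* sits higher, and the days overlap for *Stat3* in both genotypes and for *Jak3* in KO.

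Ordered by the group mean in CPM, *Cish* was highest in KO at day 5 (249 ± 14.8 SD, n = 2), then WT at day 5 (172 ± 30.8), with the day 0 groups below and overlapping each other. *Stat5a* and *Stat5b* were lowest in WT at day 5 (18.5 ± 1.62 and 43.6 ± 2.52), then KO at day 5 (23.2 ± 0.0507 and 55.8 ± 5.35), and their day 0 groups overlapped. *Stat4* was highest in WT at day 5 (278 ± 0.776), followed by KO at day 5 (258 ± 17.3), KO at day 0 (217 ± 8.78) and WT at day 0 (196 ± 12.8), with no overlap between neighbours. *Stat6* was highest in KO at day 0 (210.4 ± 13.6) and lowest in WT at day 5 (77.3 ± 8.48), and between them WT at day 0 and KO at day 5 overlapped. *Socs2* and *Socs3* each overlapped between genotypes at day 5. All neighbours in the order overlapped for *Stat3* and *Jak3*. Not overlapping is a description of 2 libraries a group, and the called differences are those given above.

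Set against each other per kilobase of exon (RPKM), *Stat4* kept its place between the days and *Cish* did not. *Stat4* was the most abundant member in every library, at 48.4 to 72.0 RPKM, and *Stat6* was second at day 0. At day 5 *Cish* was second in all 4 libraries. *Stat4* made up 40.0% to 44.4% of the summed RPKM of the 5 STAT members at day 0 and 51.8% to 66.2% at day 5, while that sum itself ranged from 109 to 144 RPKM with no split by day. *Stat5b* exceeded *Stat5a* by 2.35 to 3.36 times per kilobase in all 8 libraries. The GC content was 52.7% for *Stat5b* and 57.9% for *Stat5a*. Protein-coding genes that reached 1 CPM had a median of 5.17 RPKM at 50% to 55% GC and 3.18 RPKM at 55% to 60%. The part of GC content in the order of the members was not tested. The summed RPKM of the 4 inhibitors went from 5.28 to 7.96 at day 0 to 31.3 to 47.1 at day 5. *Cish* provided 30.0% to 40.3% of that sum at day 0 and 74.7% to 87.9% at day 5. *Cish* stood below *Socs3* per kilobase in each library of day 0 (0.447 to 0.697 of its level) and above it in each library of day 5 (9.38 to 23.7 times). The length used was the union of all annotated exons, 6419 bases for *Cish* and 2891 for *Socs3*. In CPM at day 0, *Cish* stood at 14.6 and 14.6 in WT and 10.2 and 17.7 in KO. *Socs3* stood at 9.62 and 9.46 in WT and 10.3 and 14.4 in KO. The day 0 order thus depends on the length used, as does the share of *Cish* in the sum. *Jak3* did not exceed 0.673 RPKM.

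**Figure D3:**
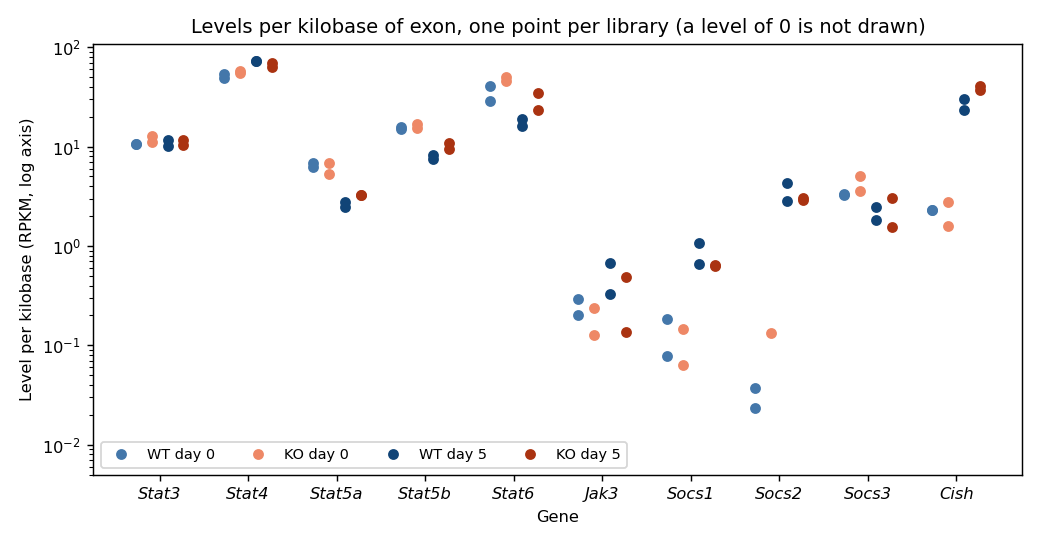
Level of each of the 10 members per kilobase of exon (RPKM, log axis), with 1 point per library coloured by group. *Stat4* is highest throughout, *Cish* moves from 1.58 to 2.76 RPKM at day 0 to 23.4 to 40.4 RPKM at day 5, and *Socs2* lies below 0.14 RPKM at day 0, with its library at 0 not drawn.

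The comparison of KO with WT asked whether the label changed these genes before or after culture. At day 0 none of the 9 tested members was called, against 1.80% of all genes tested. At day 5 none was called, against 1.63%. At an unadjusted p under 0.05 there was 1 member at day 0 (*Stat6*), beside 1742 of the 12597 genes tested, and there were 3 at day 5 (*Stat6*, *Stat5b* and *Cish*), beside 1775. DESeq2 called no member at day 0, with 299 calls over all genes, and 1, *Stat6*, at day 5, with 350. The libraries of WT and KO did not overlap for 4 of the 10 members at day 0 and 6 of 10 at day 5, which compares with 43.5% and 45.6% of all genes tested.

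*Stat6*, the STAT of IL-4 signalling, had the largest KO against WT difference at day 5 among the 9 tested members. The KO libraries lay above the WT libraries on both days, without overlap. The log2 fold change was 0.47 at day 0 (95% interval 0.05 to 0.89, edgeR adjusted p = 0.303) and 0.72 at day 5 (0.28 to 1.16, adjusted p = 0.110). Without WT replicate 1 or 2 of day 0 the day 0 value was 0.24 (adjusted p = 0.785) and 0.73 (adjusted p = 0.292). The day 5 difference was called under DESeq2 (adjusted p = 0.0210), the edgeR exact test (adjusted p = 0.0363) and a fit with no filter on low counts (adjusted p = 0.00301). Over all alternatives its size ran from 0.41 to 0.98, and its adjusted p from 0.00301 to 0.724.

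*Cish* was higher in both KO libraries than in both WT libraries at day 5, and the day 0 libraries overlapped. Its difference was 0.53 on the log2 scale at day 5 (95% interval 0.11 to 0.95, adjusted p = 0.217) and -0.13 at day 0 (-0.67 to 0.42, adjusted p = 0.884). *Stat5b* also lay higher in KO at day 5 without overlap, at 0.36 (0.02 to 0.69, adjusted p = 0.313), and *Stat5a* at 0.33 (-0.10 to 0.76, adjusted p = 0.502). With the GC and length offset these values were 0.18 and 0.08. For *Stat3* and *Stat4* the intervals were narrow: 0.02 (-0.28 to 0.32) and -0.11 (-0.36 to 0.15) at day 5. *Socs2*, *Socs3* and *Jak3* overlapped between genotypes at day 5, with differences of -0.27 (-1.10 to 0.56), 0.11 (-0.70 to 0.92) and -0.63 (-2.14 to 0.88). At day 0 the differences of the tested members ranged from -0.50 for *Jak3* (95% interval -2.19 to 1.19) to 0.50 for *Socs2* (-2.39 to 3.38), and that of *Socs3* was 0.35 (-0.37 to 1.08). The pooled KO to WT count ratio of *Socs1* at day 5 was 0.763 (95% counting interval 0.400 to 1.44).

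The genotype by day interaction, which is the KO against WT difference at day 5 minus that at day 0, was called for none of the 9 tested members and for 0.159% of all genes. None had an unadjusted p under 0.05, and DESeq2 also called none, with 20 calls over all genes by edgeR and 144 by DESeq2. The highest value was that of *Cish*, 0.66 on the log2 scale (95% interval -0.03 to 1.35, adjusted p = 0.426), and the lowest that of *Socs2*, -0.76 (-3.79 to 2.26, adjusted p = 0.881). Leaving out KO replicate 1 or 2 of day 0 took the first to 0.25 and 1.01, and without KO replicate 2 of day 0 the second was 3.64. The different sizes of its rise in WT and KO were thus not separable from the spread between libraries. The same held for *Stat4*, called in WT alone (interaction -0.25, -0.62 to 0.11, adjusted p = 0.580).

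**Figure D4:**
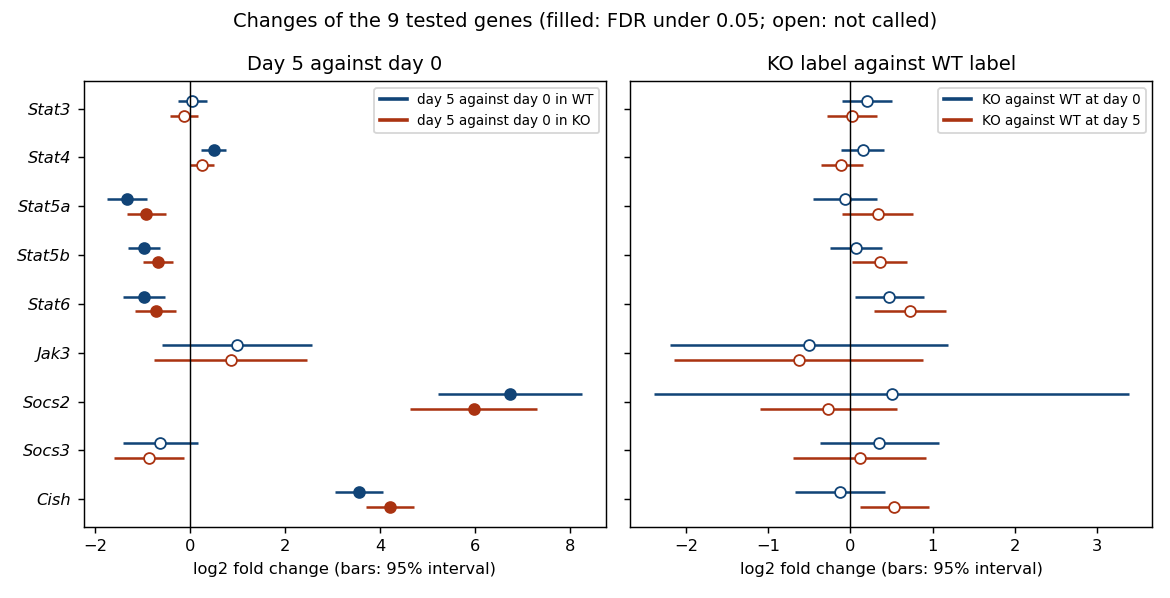
Log2 fold changes of the 9 tested members with 95% intervals, for day 5 against day 0 (left) and for the KO label against the WT label (right), with filled points at an adjusted p under 0.05. The called changes are all in the left panel, with *Socs2* at 6.73 and 5.97 and *Cish* at 3.55 and 4.21, and the right panel holds no filled point.

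Beyond the members, 49 genes of the pathway were counted in 5 lists, and 48 of them were tested. With culture 35 of 48 were called in WT (16 higher and 19 lower) and 28 of 48 in KO (14 higher and 14 lower), which is 72.9% and 58.3% beside the 48.3% and 50.2% of all genes called. The lists were chosen with earlier results of these data known, and no list was tested against other genes. Their median log2 fold change was -0.33 in WT and -0.16 in KO, beside medians of -0.04 and -0.05 over all genes.

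The receptor chains held the widest changes. Of 18 tested, 13 were called in WT (7 higher and 6 lower) and 12 in KO (6 higher and 6 lower), or 72.2% and 66.7% against 48.3% and 50.2% of all genes, with medians of -0.27 and -0.12. *Il2ra*, the alpha chain of the IL-2 receptor, went from 1.78 to 7.35 CPM over the libraries of day 0 to 1619.97 to 2124 CPM over those of day 5, a log2 fold change of 9.65 ± 0.31 in WT and 8.24 ± 0.27 in KO. *Il12rb2*, the chain of the IL-12 receptor that recruits STAT4, rose by 7.05 ± 0.27 in WT and 7.36 ± 0.26 in KO. *Il7r*, the IL-7 receptor chain of resting T cells, fell by 5.39 ± 0.19 on the log2 scale in WT. *Il6ra*, the IL-6 receptor chain, fell by 5.11 ± 0.46 in KO. These were the extremes of their list, and all were called at an adjusted p of 1.69e-06 or less.

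The target list, 10 genes held to respond to STAT5 or STAT3 in T cells, was called in full in both genotypes, with 7 higher and 3 lower, where 48.3% and 50.2% of all genes were called. Its median log2 fold change was 1.42 in WT and 1.96 in KO. *Pim1* and *Pim2*, which encode survival kinases, rose by 2.63 ± 0.39 and 2.27 ± 0.16 in WT and by 2.44 ± 0.38 and 2.46 ± 0.16 in KO. *Bcl6*, a repressor of effector programmes, fell by 3.26 ± 0.23 in WT and by 2.78 ± 0.22 in KO.

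Calls among the kinases and STATs outside the members were all lower. Of 5 genes, 4 were called in WT, all lower, and 1 of 5 in KO, beside 23.6% and 24.0% of all genes called lower, with medians of -0.82 and -0.19. *Jak1*, the partner of JAK3 at gamma-chain receptors, fell by 1.32 ± 0.12 in WT and by 1.50 ± 0.12 in KO. In WT *Tyk2*, a kinase of the IL-12 and interferon receptors, fell by 0.94 ± 0.26, and *Stat2*, which acts downstream of type I interferon, fell by 0.82 ± 0.18. *Jak1* itself was counted at 698 to 819.6 CPM at day 0 and at 260.1 to 305 CPM at day 5.

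Not all inhibitors followed *Cish*. Of the 4 other SOCS genes, 2 were called in each genotype (50.0%), both lower, near the 48.3% and 50.2% of all genes called. Of all genes, 23.6% were called lower in WT and 24.0% in KO. The medians of these 4 were -0.72 and -0.83. *Socs5* fell by 1.31 ± 0.45 in WT and 1.42 ± 0.43 in KO, and *Socs4* by 0.74 ± 0.27 and 1.02 ± 0.26. Among 11 other negative regulators, 6 were called in WT (2 higher and 4 lower) and 3 in KO (1 higher and 2 lower), or 54.5% and 27.3% where 48.3% and 50.2% of all genes were called, with medians of -0.25 and -0.08. *Ptpn2*, a phosphatase that removes phosphate from JAKs and STATs, rose by 1.29 ± 0.16 in WT and by 0.99 ± 0.16 in KO. *Pias4*, a SUMO ligase that restrains STATs, fell by 1.15 ± 0.36 in WT and by 1.34 ± 0.32 in KO. *Pias2*, of the same family, fell by 0.99 ± 0.32 in WT, and *Cbl*, a ubiquitin ligase, fell by 0.74 ± 0.18 in KO.

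**Figure D5:**
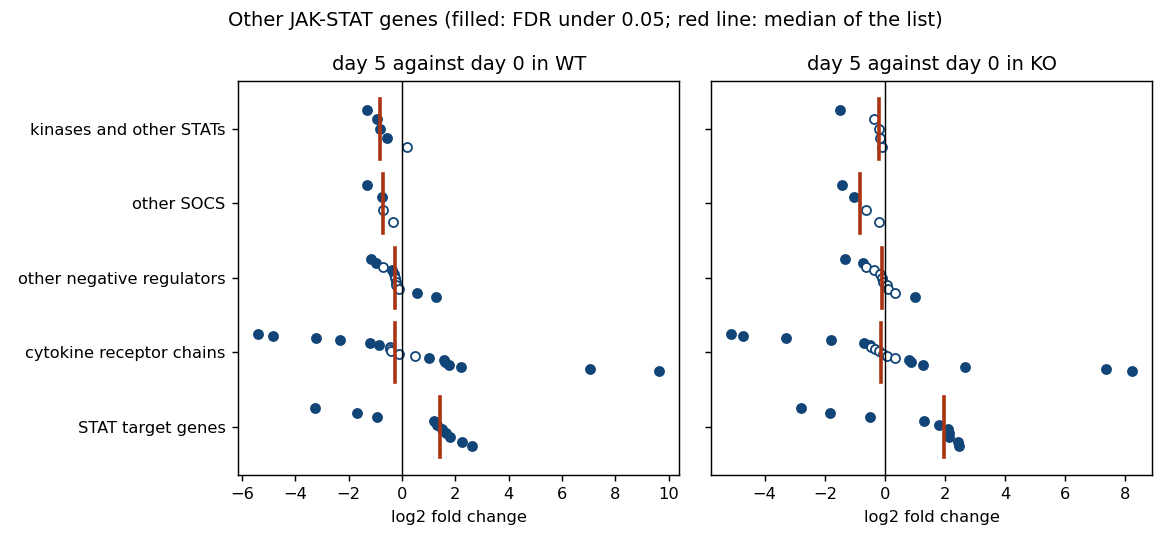
Log2 fold change at day 5 against day 0 in WT (left) and KO (right) for the 48 tested other genes of the pathway, by list, with filled points at an adjusted p under 0.05 and a red line at the list's median. All 10 target genes are filled in both panels, and the receptor chains span from -5.39 to 9.65 in WT.

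Between genotypes, 4 of the 48 other genes of the pathway were called at day 0 (8.33%, beside 1.80% of all genes): *Il10ra* (2.15 ± 0.33), *Ifngr1* (1.26 ± 0.13) and *Il2rb* (1.10 ± 0.14), which encode chains of the IL-10, interferon gamma and IL-2 receptors, were higher in KO, and *Pim2* was lower (-0.76 ± 0.17). At day 5, 7 of 48 were called (14.6%, beside 1.63% of all genes), all higher in KO, among them the receptor chain genes *Il10ra* (1.42 ± 0.30), *Il7r* (1.14 ± 0.18) and *Il4ra* (0.93 ± 0.20), the STAT gene *Stat2* (0.95 ± 0.17) and *Bcl2l1* (1.03 ± 0.23), which encodes the survival factor BCL-XL. The day 0 count was 1 without WT replicate 1 of day 0. The day 5 count was 2 and 1 without WT replicate 1 or 2 of day 5, and 1 and 0 without KO replicate 1 or 2. With the offset for GC and length it was 3, of which 2 were higher and 1 lower, and DESeq2 and the exact test each called 8 higher and 1 lower. A difference between these genes and the members was not tested. The interaction was called for none of the 48 by the edgeR fit used throughout, and for 1 or 2 under some alternatives, 1 by DESeq2 among them. Over these same groups the summed CPM of the 3 regulatory T-cell markers was 26.4 to 29.1 in WT and 128 to 135 in KO at day 0, and 1789 to 2161 in WT and 1689 to 2061 in KO at day 5, where *Il2ra* made up most of it. The summed CPM of the 3 CD4 T-cell markers was 1.35 to 3.56 in WT and 6.03 to 6.24 in KO at day 0. At day 5 it was 2.64 to 3.16 in WT and 3.12 to 3.21 in KO. The part of either sum in these differences was not tested.

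The 9 tested members were last matched to the genes whose levels followed it most closely over the 8 libraries, by the root-mean-square difference of centred log2 CPM among 8151 other genes. The list of candidates was limited to genes with at least 10 CPM in their highest group. *Cish* was followed most closely by *Asf1b* and *Chaf1a*, which encode histone chaperones of DNA replication, at 0.22 and 0.22 log2 units. For *Socs2* they were *Arhgef39* (0.27) and *Ckap2* (0.38). *Stat5a* was matched by *Gbf1* (0.08) and *Il16* (0.09), and *Stat5b* by *Zfyve27* and *Itgb7* (0.07 each). *Stat4* was matched by *Insig2* (0.05), and *Stat3* by *Sdad1* (0.04) and *Mrpl52* (0.06). *Stat6* had *Kcnab2* (0.13) and *Atp2a3* (0.14), and *Socs3* had *Mogs* (0.12) and *Ythdf3* (0.17). *Jak3*, with its few counts, had no neighbour under 0.32 (*Mgst2*, then *Nudt7* at 0.33). For *Stat3* and *Stat4*, 952 and 857 genes lay within 0.2, against 18 for *Stat6* and none for *Cish* or *Socs2*.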

How the data were processed

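RNA was extracted with Trizol from sorted splenic CD8+ T cells, and libraries were read at 50 bases. What the authors deposited for a library is its raw count of reads for every gene symbol, neither normalized nor pooled. The submitters' processing notes name HISAT2 2.1.0, HTSeq 0.11.1 and the mm10 (GRCm38) genome. Annotation and strand setting were not given in the sources used here. Reads without a gene, in several genes or with several alignments (75.5% to 78.8% of a library) are listed by the counting program apart from the genes and were left out. Members and gene lists were chosen with earlier results of these data known.

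Of 48321 symbols, 34404 had a count in any library. All 8 libraries entered one edgeR 4.0.16 quasi-likelihood fit (R 4.3.3) with a mean per group, TMM factors and the default filter (minimum count 10), which left 12597 genes. Between libraries of a group the common biological variation (CV) was 15.0%. P-values were two-sided and Benjamini-Hochberg adjusted over all genes tested. Values are given per library, and errors of fold changes are standard errors of the model. Counting intervals are exact 95% intervals of pooled counts and, like the floor of 3 counts, cover counting error only. Exon lengths for RPKM, overlaps and shared 50-base words came from GENCODE M21, and promoter sequences from RefSeq. An exon length was that of the union of all annotated exons of a gene. Replicates of a group differed beyond sampling noise (chi-square of 4.86 to 10.2 per degree of freedom) and were counted as separate libraries, which does not show separate mice.

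All 10 members were named whatever they did. Of each other list at most 3 genes per comparison were named, those with the largest absolute log2 fold change among the called. For each member the 2 nearest genes with at least 10 CPM in the highest group were named. For *Stat4* 1 of these 2, and 1 of the 6 B-cell markers, are not reported here. *Socs1*, which was not tested, was not matched. Alternatives were DESeq2 size factors, library totals, no filter, at least 5 CPM in 2 libraries, the 4 libraries of a comparison, a replicate block, the edgeR 4 form of the test, DESeq2 1.42.0, the edgeR exact test and omission of each library. An offset for GC content and exon length (available for 96.9% of tested genes) and thinning to 4170126 counts were added after the data were seen. Statistical scripts were tested on simulated counts.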

Additional observations from a re-analysis of the deposited data

How the results depend on the processing

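Of 829 member values computed under the alternatives, 788 kept their direction and their side of the threshold, and 28 turned sign, none of them past the threshold. The member count at day 5 between genotypes went from 0 to 1 (*Stat6*) with no filter, under DESeq2 and under the exact test, and was 0 under the other alternatives. With culture it was 6 in WT whichever library was left out, and 5 to 6 in KO. The 2 libraries a group and the few counts of *Jak3*, *Socs1* and *Socs2* at day 0 limit what could be seen.

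Scaling by library totals alone moved the all-gene median of the log2 fold changes with culture from -0.04 to -0.17 in WT and from -0.05 to -0.23 in KO. It moved the calls from 3112 higher and 2969 lower to 2670 and 3547 in WT, and from 3296 and 3029 to 2765 and 3912 in KO. The called members kept their direction under it. Over all genes, calls between genotypes ranged from 37 to 276 at day 0 (227 with all libraries) and from 32 to 257 at day 5 (205) on leaving out a library, and the exact test gave 449 and 454. The interaction was called for 20 genes, for 0 to 38 on leaving out a library, and for 154 with no filter.

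Of the other genes of the pathway, KO against WT at day 0 gave 7 calls in place of 4 with no filter and 1 to 5 on leaving out a library. At day 5 it gave 3 in place of 7 with the GC and length offset, and 0 to 7 on leaving out a library. The interaction gave 1 with library totals, 2 with no filter, 1 under DESeq2, 1 after thinning, and 0 to 1 on leaving out a library, in place of 0. The cause was not tested.

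Signs that turned were all of uncalled values. For KO against WT at day 5, *Stat3* was -0.01 with library totals, -0.15 with the offset and -0.01 after thinning, and *Socs3* was -0.07 with the offset and -0.12 after thinning. For WT with culture, *Stat3* was -0.08 with library totals. After thinning, the interaction of *Jak3* was 0.56 and *Stat5b* at day 0 was 0.00. On leaving out a library, the KO against WT value at day 0 ranged from -0.49 to 0.28 for *Cish*, -3.92 to 2.02 for *Socs2*, -0.28 to 0.13 for *Stat5a* and -0.01 to 0.16 for *Stat5b*. At day 5 it ranged from -1.81 to 0.01 for *Jak3*, -0.55 to 0.07 for *Socs2*, -0.45 to 0.51 for *Socs3* and -0.07 to 0.11 for *Stat3*. With culture it ranged from -0.32 to 1.50 for *Jak3* in KO and from -0.04 to 0.17 for *Stat3* in WT. The interaction ranged from -1.31 to 0.51 for *Jak3*, -2.28 to 3.64 for *Socs2*, -0.80 to 0.15 for *Socs3* and -0.05 to 0.51 for *Stat6*.

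The replicate numbers were not shown to pair the libraries: deviations of same-numbered libraries correlated at 0.004 between genotypes at day 0, -0.017 between genotypes at day 5, 0.118 between days in WT and 0.228 between days in KO. Under the replicate block, 0 members were called between genotypes on either day, 6 with culture in WT, 5 in KO and 0 for the interaction, and all 45 member values kept their direction and side of the threshold. The other genes of the pathway gave 4, 7, 36, 28 and 0 calls under the block.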
